A study of Homo sapiens with 8 samples.

Results

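The genes described here are the amino acid transporter genes of the solute carrier families SLC1A, SLC3A, SLC6A, SLC7A, SLC36A, SLC38A and SLC43A, measured in SKBR3 cells with and without knockdown of FOXA1. They were taken from the table by symbol alone, as every row named by 1 of these 7 families and a number, which gave 51 of 30434 rows. SKBR3 is an established human breast cancer cell line with amplified ERBB2, and FOXA1 is a forkhead transcription factor of luminal breast cells. The study compared 4 control libraries, whose genotype is labelled WT, with 4 FOXA1 knockdown libraries from a stable line made with lentiviruses carrying 3 individual short hairpin RNAs against FOXA1. All cells were grown in DMEM with GlutaMAX-1 and 10% fetal bovine serum, so both groups had a stabilised glutamine source in the medium. The labels do not say whether control cells received a vector, nor whether replicates were separate cultures, so p-values measure the spread between these libraries, which may be technical.

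Amino acids cross membranes mainly through carriers, and each carrier accepts its own set of substrates. Exchangers such as SLC1A5 and the SLC7A5 and SLC3A2 pair trade one amino acid for another, whereas sodium-coupled carriers such as those of system A (SLC38A1, SLC38A2 and SLC38A4) load the cell against a gradient. Cancer cells commonly rely on SLC1A5 for glutamine and on SLC7A5 for leucine and other large neutral amino acids. Some members of SLC6A carry neurotransmitters, taurine, betaine or creatine instead of the amino acids of protein, and SLC43A3 carries nucleobases; the rule on symbols included them.

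The libraries held 19087878 to 23786684 counts. FOXA1 itself checked the labels: its counts were 4180, 4239, 4071 and 4397 in control and 89, 87, 83 and 92 in knockdown, a fall of 5.60 on the log2 scale (SE 0.063, edgeR quasi-likelihood test, adjusted p = 3.19e-30). Of all 16430 genes tested, 77.1% passed an adjusted p of 0.05, 39.4% higher and 37.7% lower in knockdown, so passing the test was the common outcome here. The 8 markers of the line summed to 18717 to 20829 counts per 1000000 counts (CPM) in control and 11706 to 12603 CPM in knockdown, and ERBB2, GRB7, KRT7 and KRT19 fell while KRT8, KRT18, EPCAM and TFAP2A rose. Of 7 fibroblast marker rows 4 were tested, 2 were higher and 1 lower, with a summed level of 5.99 to 7.54 CPM in control and 11.2 to 12.8 CPM in knockdown. COL3A1 rose from 0.0222 to 4.31 CPM and PDGFRB from 0.410 to 2.83 CPM. COL1A1 fell from 5.38 to 4.32 CPM, and THY1 did not pass, at 0.608 CPM in control and 0.586 CPM in knockdown. COL1A2, PDGFRA and DCN were at or near 0. Immune markers summed to 1.14 to 1.76 CPM in control and 1.34 to 1.80 CPM in knockdown, and endothelial markers to 20.7 to 22.1 CPM and 19.8 to 22.4 CPM. The part of other cell types in the transporter values was not tested. Control replicate 3 stood somewhat apart, with a chi-square per degree of freedom of 4.81 to 6.21 against the other controls, which gave 2.16 to 2.38 among themselves. Without it, 17 transporter genes were still higher and 14 lower.

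The sequences just upstream of the start sites are shown for 2 pairs of related members, each with a RefSeq window, that moved unequally; whether these stretches are active was not measured. SLC38A4, with no count in control, is set beside SLC38A2, its relative in the same chromosomal cluster, and SLC6A11, with few counts in control, beside SLC6A8, which fell most among the abundant members. They are RefSeq sequences of build GRCh38.p14, 250 bases up to the start, 5′ to 3′ on the gene's strand, with CG dinucleotides in capitals. The SLC38A4 stretch is chr12:46825998-46826247 on the minus strand and holds 11 CG dinucleotides at 51.6% G and C. That of SLC38A2, chr12:46372774-46373023 on the minus strand, holds 26 at 73.6%. The stretches of SLC6A11, chr3:10815978-10816227, and SLC6A8, chrX:153687676-153687925, both on the plus strand, hold 30 at 80% and 25 at 76.4%. The SLC38A4 stretch thus had the fewest CG dinucleotides of the 4, but it was not low among all genes. In its window of 300 bases CG stood at 0.717 of the number that its C and G content would give. The median over all 35116 RefSeq windows was 0.579.
SLC38A4: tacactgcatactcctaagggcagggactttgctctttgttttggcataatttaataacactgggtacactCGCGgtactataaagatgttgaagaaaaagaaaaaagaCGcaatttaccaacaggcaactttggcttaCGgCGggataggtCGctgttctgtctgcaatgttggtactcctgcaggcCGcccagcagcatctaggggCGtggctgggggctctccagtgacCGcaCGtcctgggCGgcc
SLC38A2: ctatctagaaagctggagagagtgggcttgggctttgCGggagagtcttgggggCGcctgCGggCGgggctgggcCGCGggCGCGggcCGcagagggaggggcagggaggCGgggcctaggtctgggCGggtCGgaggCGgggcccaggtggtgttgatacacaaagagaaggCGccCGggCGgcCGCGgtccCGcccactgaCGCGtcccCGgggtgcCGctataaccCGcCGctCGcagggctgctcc
SLC6A11: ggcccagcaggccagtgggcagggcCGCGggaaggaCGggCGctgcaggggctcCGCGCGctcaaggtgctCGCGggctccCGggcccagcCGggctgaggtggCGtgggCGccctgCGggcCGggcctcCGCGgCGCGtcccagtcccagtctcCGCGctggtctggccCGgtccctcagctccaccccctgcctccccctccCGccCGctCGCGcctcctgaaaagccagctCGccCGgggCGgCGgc
SLC6A8: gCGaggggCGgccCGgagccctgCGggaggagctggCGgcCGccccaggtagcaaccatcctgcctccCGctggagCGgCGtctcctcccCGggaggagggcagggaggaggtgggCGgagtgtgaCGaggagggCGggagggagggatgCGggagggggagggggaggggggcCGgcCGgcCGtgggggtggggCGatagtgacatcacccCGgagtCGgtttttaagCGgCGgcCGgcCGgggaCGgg

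RefSeq windows of 300 bases (250 before and 50 after a start) were at hand for 37 of the 51 members, as 59 windows. Short motifs were searched on both strands: TGTTTAC and TGTTTGC, forkhead motifs of the kind FOXA1 binds that share their opening letters, and TGATGCAA, the core of the amino acid response element. TGTTTAC stood in 2 of the 59 windows, of SLC1A5 and SLC43A1, and in 3.42% of all 35116 windows. TGTTTGC stood in 3 of the 59, of SLC36A4, SLC38A1 and SLC6A16, and in 3.89% of all windows. TGATGCAA stood in 3 of the 59, of SLC1A3, SLC1A4 and SLC1A5, and in 0.866% of all windows. SLC1A5 was the member with both a forkhead motif and TGATGCAA, in the same window of its most downstream start, and that stretch is printed with both in capitals. It is chr19:46784815-46785064 on the minus strand, with the forkhead motif, here as its reverse complement, at base 24 and TGATGCAA at base 154, counted from 1 at the 5′ end. The windows at the other SLC1A5 starts, chr19:46788545-46788844 and chr19:46787244-46787543, held none of these motifs. A match to letters is not a measured binding site.
SLC1A5: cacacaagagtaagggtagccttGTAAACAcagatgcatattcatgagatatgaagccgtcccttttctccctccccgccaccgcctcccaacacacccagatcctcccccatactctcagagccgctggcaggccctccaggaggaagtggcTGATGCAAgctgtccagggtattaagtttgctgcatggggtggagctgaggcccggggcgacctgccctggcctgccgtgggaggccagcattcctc

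Of the 51 members, 35 passed the filter on low counts and 16 did not. Of the 35 tested, 17 were higher in knockdown, 14 were lower and 4 did not pass, beside the 39.4% and 37.7% of all genes that did. Changes of at least 2-fold were found for 17 members, 10 higher and 7 lower, beside 28.3% of all genes with either direction. Changes of at least 8-fold were found for 10 members, 7 higher and 3 lower, beside 9.4% of all genes. The median absolute log2 fold change of tested members was 0.97, against 0.51 for all tested genes. The transporter genes were chosen with earlier results of these data known, so these figures describe the members and test nothing. The counts are not independent of the filter: 9 tested members lay below its level of 0.442 CPM in 1 group, 7 of them in control, and could pass only through the other group. All of the 10 members at 8-fold or more except SLC1A3 and SLC6A8 were among these 9. CPM values did not overlap between groups for 29 members, beside 71.9% of all genes, and each of the 29 had an exact two-sided permutation p of 0.0286, the smallest that 70 divisions of 4 against 4 libraries can give.

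**Figure D1:**
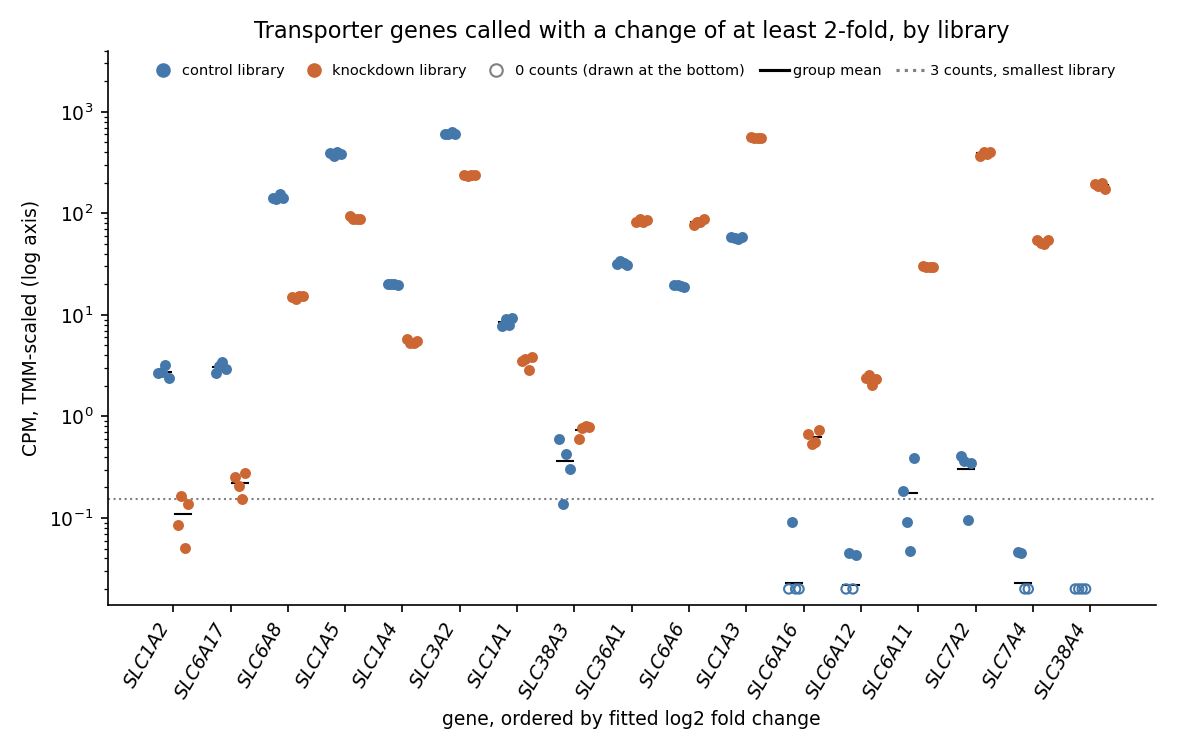
CPM (log axis) of each transporter gene called with a change of at least 2-fold, in 4 control and 4 knockdown libraries, with group means as bars and counts of 0 as open circles at the bottom. SLC38A4 is at 0 in all 4 controls and between 175.7 and 201.3 CPM in knockdown, and SLC38A3 is the 1 gene shown whose groups overlap.

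System A, the sodium-coupled carriers of small neutral amino acids and glutamine, rose in all 3 members. SLC38A4 (ENSG00000139209.16, chr12:46764761-46832408), a carrier best known from liver and placenta, had 0 counts in each of the 4 controls and 4578, 4533, 3958 and 3803 counts in knockdown. It went from no detected RNA to 189.2 ± 11.1 CPM (SD, n = 4), at least 1330-fold higher against a floor of 3 counts per library (edgeR adjusted p = 1.75e-25). A count of 0 limits the level only to below that floor, which was 0.129 to 0.142 CPM in the controls. That SLC38A4 was silent in control was known when the genes were chosen, and it passed the filter only through knockdown. Its adjusted p is therefore a description and not independent support. These are RNA levels of whole cultures. More expressing cells and more RNA per cell cannot be told apart in them, nor can fewer cells and less RNA per cell.

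SLC38A2, the system A member that many cells induce when amino acids run short, had 159.3, 156.9, 140.1 and 155.5 CPM in control and 239.0, 247.6, 249.6 and 244.2 CPM in knockdown. The groups did not overlap, and control replicate 3 was the lowest. The rise was 0.68 on the log2 scale (SE 0.045, edgeR adjusted p = 2.03e-14). SLC38A1, the most abundant system A gene, had 498.3 to 552.6 CPM in control and 661.9 to 706.5 CPM in knockdown, a rise of 0.35 (adjusted p = 2.49e-09). Tested genes around both also lay higher: for the nearest 50 the log2 fold change had a median of 0.23. Taken relative to that regional median, the rises were 0.45 for SLC38A2 and 0.12 for SLC38A1. Per kilobase of exon, SLC38A4 made up 27.6% ± 1.37 (SD, n = 4) of the system A RNA in knockdown and 0% in control.

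The 3 system A genes lie in a row on chromosome 12, with 88171 bp between SLC38A1 and SLC38A2 and 391893 bp between SLC38A2 and SLC38A4. Of the 10 other tested genes whose starts lie within 1000000 bp of the SLC38A4 start, 4 rose, 4 fell and 2 did not pass. On the far side of SLC38A4 the nearest tested genes were PCED1B and AMIGO2. AMIGO2, a cell adhesion gene, fell from 17.6 ± 0.554 to 1.82 ± 0.673 CPM, a log2 fold change of -3.26 (SE 0.339, edgeR adjusted p = 1.62e-10), and PCED1B by 2.40 on the log2 scale (adjusted p = 7.14e-17). Farther out on that side RPAP3 rose by a log2 fold change of 0.62 (adjusted p = 0.0063), and SLC48A1 and RAPGEF3 fell by 1.28 and 1.57. None of the 10 neighbours had a rise near the bound for SLC38A4. The antisense gene SLC38A4-AS1, which spans SLC38A4 on the opposite strand, had 7 to 12 counts in control and 3 to 10 in knockdown and was not tested. GENCODE 29 starts SLC38A4 farther upstream than the RefSeq start used for the printed sequence.

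**Figure D2:**
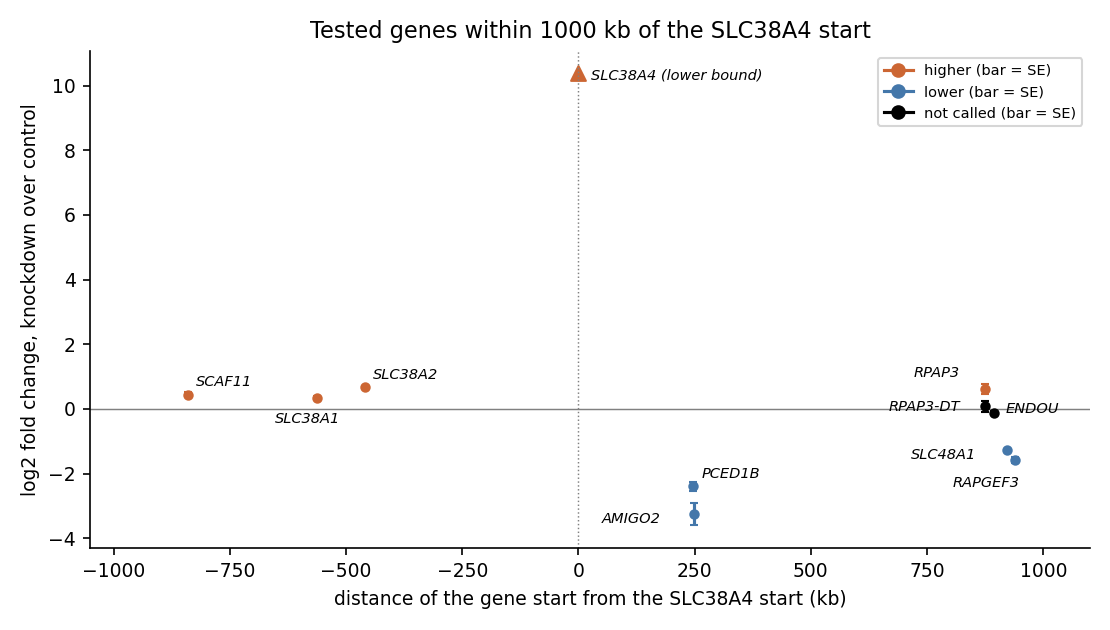
Fitted log2 fold change (knockdown over control, bars are SE) of the tested genes within 1000000 bp of the SLC38A4 start against distance in kb. The triangle marks SLC38A4 at its lower bound, SLC38A1 and SLC38A2 lie at 0.35 and 0.68, and AMIGO2 and PCED1B lie below 0 at -3.26 and -2.40.

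Cationic amino acid transporters, which carry arginine, lysine and ornithine, moved in opposite directions. SLC7A2 (CAT2, ENSG00000003989.18), an arginine carrier of liver, muscle and activated macrophages, had 9, 8, 2 and 8 counts in control and 8683, 9945, 7621 and 8753 in knockdown. Its level went from 0.303 ± 0.142 to 391.8 ± 17.7 CPM (SD, n = 4), a log2 fold change of 10.30 (SE 0.438, edgeR adjusted p = 6.73e-30). SLC7A4 (ENSG00000099960.13, chr22:21028718-21032840), a relative whose transport role is unsettled, had 1, 1, 0 and 0 counts in control and 1285, 1260, 972 and 1192 in knockdown. Its pooled counts were 2326 times higher in knockdown (exact 95% counting interval 644 to 19213, adjusted p = 1.54e-26), and the knockdown mean was 52.6 ± 2.65 CPM. Both were thus absent or barely detected in each control library and plainly expressed in every knockdown library.

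SLC7A1 (CAT1), the arginine carrier of most dividing cells, fell. It had 156.3, 159.4, 168.6 and 154.3 CPM in control and 82.9, 84.0, 75.6 and 82.2 CPM in knockdown, a log2 fold change of -0.97 (SE 0.045, edgeR adjusted p = 3.87e-17). Tested genes around it also lay lower, with a regional median of -0.42, and relative to that the change was -0.56. Per kilobase of exon, SLC7A2 went from 0.180% ± 0.0866 to 81.9% ± 0.903 (SD, n = 4) of the RNA of SLC7A1 and SLC7A2 together. SLC7A14, a lysosomal relative, had 2 to 13 counts per library over both groups and was not tested.

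Carriers of GABA, taurine, betaine and creatine in the SLC6A family also split, with 3 of 4 tested members higher and 1 lower. SLC6A11 (GAT3, ENSG00000132164.10, chr3:10816200-10940733), a GABA carrier of brain astrocytes, had 4, 2, 1 and 9 counts in control and 716, 718, 583 and 641 in knockdown. This was a rise from 0.177 ± 0.151 to 29.8 ± 0.441 CPM, 168-fold, with a log2 fold change of 7.32 (SE 0.546, edgeR adjusted p = 1.87e-23), which was 8.03 without control replicate 4. SLC6A12 (BGT1), the betaine and GABA carrier, had 0, 1, 0 and 1 counts in control and 56, 62, 40 and 51 in knockdown. Its pooled counts were 103 times higher (exact 95% counting interval 28.2 to 858, adjusted p = 1.75e-13), at 2.33 ± 0.210 CPM in knockdown. Neither gene overlapped between groups, and SLC6A12 remained a low RNA.

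SLC6A6, the taurine carrier, had 430, 436, 402 and 438 counts in control and 1793, 1990, 1612 and 1892 in knockdown. Its level rose from 19.3 ± 0.449 to 81.7 ± 4.63 CPM, a log2 fold change of 2.08 (SE 0.044, edgeR adjusted p = 4.56e-22). SLC6A8 (ENSG00000130821.17, chrX:153688099-153696593), the creatine carrier, went the other way. It had 3101, 3029, 3289 and 3283 counts in control and 355, 347, 303 and 331 in knockdown, 144.1 ± 8.17 against 14.99 ± 0.550 CPM, a log2 fold change of -3.27 (SE 0.048, adjusted p = 4.29e-26). Its near-identical pseudogene SLC6A10P had 0.868 ± 0.171 CPM in control and 4.28 ± 0.997 CPM in knockdown, and reads of the pair may have been split between them.

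Among the glutamate carriers, which take up glutamate and aspartate with sodium, 1 rose, 2 fell and 1 did not pass. SLC1A3 (EAAT1, ENSG00000079215.14, chr5:36606355-36688334), the glutamate carrier of astrocytes, had 1285, 1266, 1193 and 1349 counts in control and 13275, 13568, 10788 and 12059 in knockdown. The level rose 9.64-fold from 57.7 ± 0.934 to 556 ± 6.12 CPM (SD, n = 4), and replicates within a group differed little. The log2 fold change was 3.27 (SE 0.014, edgeR adjusted p = 1.54e-29). Tested genes around SLC1A3 had a regional median of 0.41, and relative to that its change was 2.86. SLC1A2 (EAAT2), also of astrocytes, fell from 58, 61, 67 and 56 counts to 2, 4, 1 and 3, a log2 fold change of -4.55 (SE 0.302, adjusted p = 1.55e-13). SLC1A1 (EAAT3), the form of epithelia and neurons, fell from 8.58 ± 0.774 to 3.48 ± 0.442 CPM, a log2 fold change of -1.30 (SE 0.116, adjusted p = 5.56e-11). Genes around SLC1A1 had a regional median of -0.51, and relative to it the change was -0.79. SLC1A6 (EAAT4) had 6 to 13 counts in control and 7 to 14 in knockdown and did not pass (adjusted p = 0.889).

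SLC1A5 and SLC1A4, the neutral amino acid exchangers of the same family, both fell. SLC1A5 (ASCT2, ENSG00000105281.12, chr19:46774883-46788594), the glutamine exchanger, had 8601, 8154, 8423 and 8954 counts in control and 2244, 2144, 1732 and 1913 in knockdown. Its level went from 387 ± 12.9 to 89.9 ± 3.61 CPM, a log2 fold change of -2.11 (SE 0.037, edgeR adjusted p = 6.19e-25). SLC1A4 (ASCT1), which exchanges serine, alanine and threonine, had 438, 442, 424 and 456 counts in control and 136, 128, 104 and 121 in knockdown, a log2 fold change of -1.86 (SE 0.034, adjusted p = 6.54e-18). All control values of both lay above all knockdown values. Per kilobase of exon, SLC1A3 rose from 9.38% to 80.8% of the RNA of the SLC1A family, while SLC1A5 went from 85.6% to 17.8%.

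SLC36A1 (PAT1, ENSG00000123643.13, chr5:151437046-151492381), a proton-coupled carrier of small amino acids at lysosomes and the cell surface, rose. It had 693, 754, 685 and 719 counts in control and 1953, 2149, 1626 and 1862 in knockdown, 32.3 ± 1.39 against 84.9 ± 2.53 CPM, with a log2 fold change of 1.39 (SE 0.037, edgeR adjusted p = 1.69e-19). Tested genes around SLC36A1 also lay higher, with a regional median of 0.39, and relative to that its change was 1.00. SLC36A4, the high-affinity form, fell from 18.4 ± 1.01 to 14.7 ± 0.773 CPM, a log2 fold change of -0.32 (edgeR adjusted p = 8.75e-05). SLC36A2 and SLC36A3, which lie beside SLC36A1 on chromosome 5, had 1 to 10 and 5 to 9 counts per library and were not tested.

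The subunits of the CD98 complexes fell where they were most abundant. SLC3A2, the heavy chain that brings its light chains to the cell surface, had 606.4, 601.4, 640.4 and 610.9 CPM in control and 241.4, 232.0, 237.0 and 237.8 CPM in knockdown, a log2 fold change of -1.37 (SE 0.024, edgeR adjusted p = 2.42e-22). SLC7A5 (LAT1), its leucine-carrying light chain, had 575.4, 564.0, 619.7 and 586.7 CPM in control and 315.6, 324.4, 298.2 and 333.1 CPM in knockdown, a log2 fold change of -0.88 (SE 0.045, adjusted p = 5.30e-17). Both were high in every control library and lower in every knockdown library. SLC7A6 (y+LAT2), the light chain that exchanges arginine for glutamine, fell by 0.53 on the log2 scale (adjusted p = 9.69e-11). Its exons overlap those of SLC7A6OS on the opposite strand over 3371 bp, and the use of strand in counting is not given in the sources used here.

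The heavy chain fell more than SLC7A5. The ratio of SLC7A5 to SLC3A2 counts was 0.949, 0.938, 0.968 and 0.960 in the controls and 1.31, 1.40, 1.26 and 1.40 in knockdown, with no overlap. On the log2 scale the ratio differed by 0.49 (SE 0.039, exact two-sided permutation p = 0.0286, the smallest this design allows). Relative to regional medians of -0.12 for SLC3A2 and 0.22 for SLC7A5 the changes were closer, at -1.25 and -1.10; that difference was not tested. Per kilobase of exon, SLC3A2 stood at 1.39 ± 0.0142 times the sum of its light chains in control and at 0.939 ± 0.0479 times in knockdown. The exon length merges all coding transcripts of a gene, so this is not a ratio of molecules.

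Both other tested light chains rose. SLC7A11 (xCT), the cystine and glutamate exchanger, had 7.59, 7.80, 5.31 and 7.75 CPM in control and 11.1, 11.6, 11.4 and 12.7 CPM in knockdown. Control replicate 3 was the lowest; the log2 fold change was 0.71 with it (SE 0.140, edgeR adjusted p = 5.99e-07) and 0.59 without it. SLC7A8 (LAT2), a carrier of neutral amino acids, rose by a log2 fold change of 0.27 (adjusted p = 0.00128), from 15.6 ± 1.28 to 18.8 ± 1.42 CPM. Genes around it had a regional median of -0.25, and relative to that its change was 0.52. Low counts kept the remaining heavy and light chains of SLC3A and SLC7A out of the test: SLC3A1 and SLC7A7 had 1 to 12 and 2 to 12 counts per library, and SLC7A9 and SLC7A13 at most 1 and 2.

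**Figure D3:**
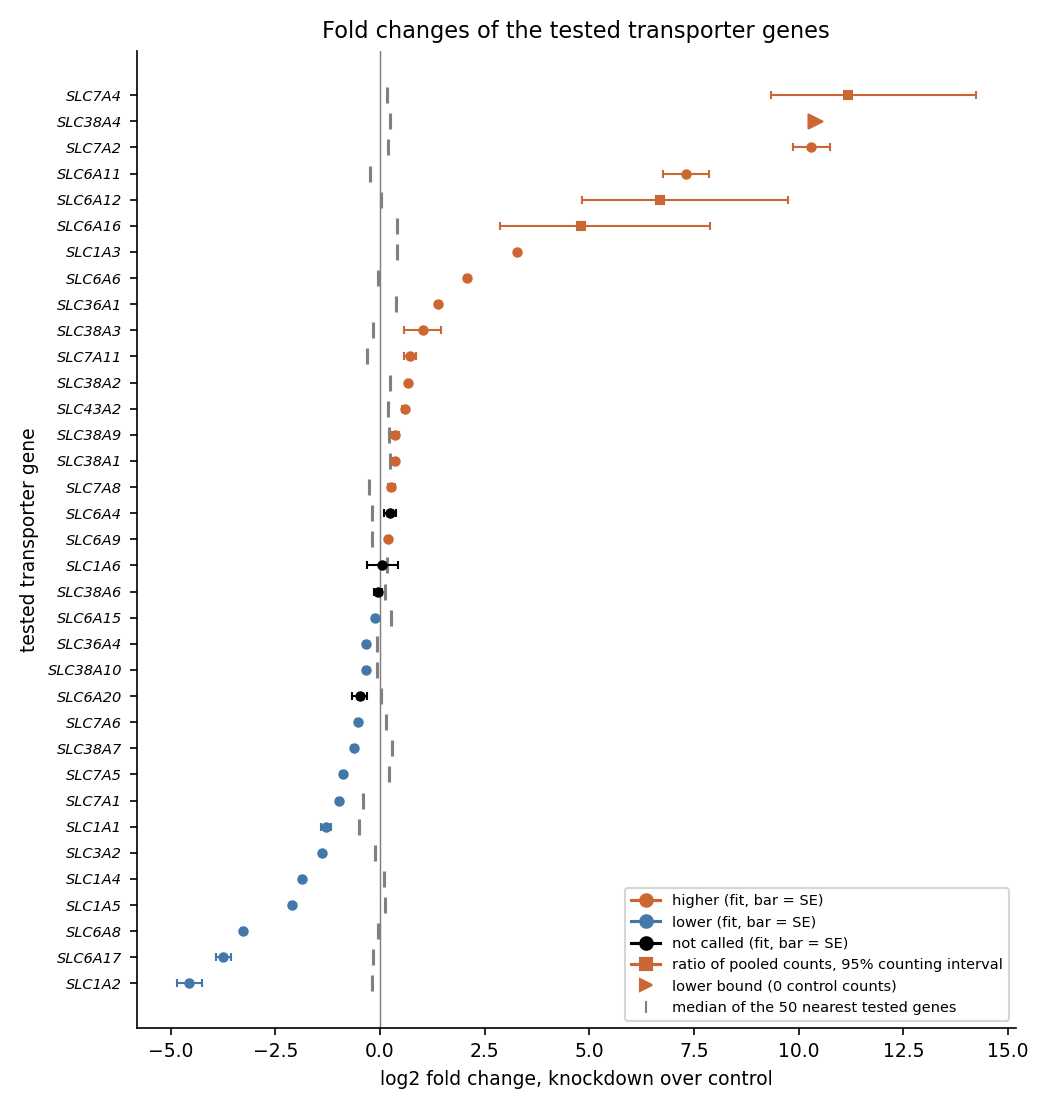
Log2 fold change (knockdown over control) of the 35 tested transporter genes in order of size: circles are fitted values with SE, squares are ratios of pooled counts with 95% counting intervals, the triangle is the lower bound of SLC38A4, and grey ticks are the medians of the 50 nearest tested genes. The 17 genes higher in knockdown begin at 0.19 for SLC6A9, and the 14 lower ones run from -0.13 for SLC6A15 to -4.55 for SLC1A2.

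Among the SLC6A carriers of neutral amino acids and glycine, 5 of 8 were tested, of which 2 were higher, 2 lower and 1 not called. SLC6A17, a vesicular carrier of neurons, fell from 59, 69, 73 and 68 counts to 6, 5, 3 and 6, a log2 fold change of -3.74 (SE 0.184, edgeR adjusted p = 1.77e-13). SLC6A16, an orphan member, had 0, 2, 0 and 0 counts in control and 16, 13, 11 and 16 in knockdown, a ratio of pooled counts of 27.7 (exact 95% counting interval 7.31 to 234, adjusted p = 2.43e-07); both control counts were in replicate 2, so without it every control was at 0 and the fitted log2 fold change, which then depends on the prior count, moved from 4.48 to 6.81. Both were low RNAs in the group where they were higher. SLC6A9 (GlyT1), the glycine carrier, rose by a log2 fold change of 0.19 (adjusted p = 0.00544), and by 0.38 relative to a regional median of -0.19.

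SLC6A15, a carrier of branched-chain amino acids and proline, fell by 0.13 on the log2 scale (edgeR adjusted p = 0.0217), with 41.1 to 44.8 CPM in control and 37.9 to 42.1 CPM in knockdown. The groups overlapped, the call was lost without control replicate 2 or 4 or knockdown replicate 1 or 2 (adjusted p = 0.0535, 0.0656, 0.0859 and 0.0732) and under upper quartile or library size scaling (0.211 and 0.426). Relative to a regional median of 0.26 the log2 fold change was -0.39. SLC6A20, a proline carrier, had a log2 fold change of -0.49 that did not pass (adjusted p = 0.0689). SLC6A19 (B0AT1), the intestinal and renal carrier, was too low to test, with 0 counts in every control and 11, 10, 5 and 7 in knockdown, at least 2.55-fold higher against 3 counts per library. SLC6A14, a broad carrier of neutral and cationic amino acids, showed the reverse, with 7, 6, 4 and 6 counts in the controls, none in any knockdown library, and a level at least 1.70-fold lower. SLC6A7, a proline carrier of brain, had 1, 5, 5 and 9 counts in control and 0, 0, 1 and 0 in knockdown, a ratio of 20.2 (exact 95% counting interval 3.24 to 839).

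Of the monoamine carriers, SLC6A4 (the serotonin carrier) was tested and did not pass, at 1.81 ± 0.341 CPM in control and 2.15 ± 0.192 CPM in knockdown (edgeR adjusted p = 0.192). SLC6A2 and SLC6A3, the noradrenaline and dopamine carriers, had 0 to 2 and 2 to 10 counts per library.

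Among the remaining SLC38A members, SLC38A7, a lysosomal glutamine exporter, fell from 30.8 ± 0.898 to 20.1 ± 1.02 CPM, a log2 fold change of -0.62 (edgeR adjusted p = 1.23e-10). SLC38A9, the lysosomal arginine sensor that signals to mTORC1, rose from 12.2 ± 0.822 to 15.8 ± 1.17 CPM, a log2 fold change of 0.37 (adjusted p = 6.04e-05), but relative to a regional median of 0.21 it was 0.16 and did not pass (adjusted p = 0.0503). SLC38A10 fell by 0.33 on the log2 scale (adjusted p = 9.96e-07), and SLC38A6 did not pass (adjusted p = 0.727). SLC38A3, a system N carrier of glutamine and histidine, had 13, 3, 9 and 7 counts in control and 14, 19, 16 and 17 in knockdown. Its groups overlapped, and its call (log2 fold change 1.02, edgeR adjusted p = 0.00771) was lost with DESeq2 (adjusted p = 0.0557). SLC38A5, the other system N carrier, had 1 to 2 counts in control and 0 in knockdown.

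SLC43A2 (LAT4), a uniporter of large neutral amino acids, rose from 22.9 ± 1.46 to 34.4 ± 2.35 CPM, a log2 fold change of 0.59 (edgeR adjusted p = 1.46e-09). SLC43A1 (LAT3), which carries the same kind of substrate, had 1, 0, 0 and 1 counts in control and 4, 6, 2 and 3 in knockdown, a ratio of 7.41 (exact 95% counting interval 1.72 to 66.8), and SLC43A3 had 0 to 4 counts per library.

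The order of the members by CPM per kilobase of exon changed at the top. In control it ran SLC3A2 (197 CPM per kb), SLC7A5 (128), SLC1A5 (116), SLC38A1 (55.5), SLC6A8 (35.99), SLC38A2 (30.6), SLC7A1 (21.5) and SLC1A3 (12.7). In knockdown it ran SLC1A3 (123 CPM per kb), SLC3A2 (75.9), SLC38A1 (70.7), SLC7A5 (69.3), SLC7A2 (49.6), SLC38A2 (49.0), SLC38A4 (45.6), SLC1A5 (27.0) and SLC7A4 (21.5). In knockdown SLC38A1 and SLC7A5, and likewise SLC7A2 and SLC38A2, stood closer to each other than the spread of their replicates. The 3 genes that were absent or nearly so in control, SLC7A2, SLC38A4 and SLC7A4, thus stood among the 9 most abundant transporter RNAs in knockdown.

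Summed over all members, controls reached 3023 ± 36.4 CPM and knockdown libraries 3341 ± 40.4 CPM, a difference of 318 CPM that became 503.5 CPM when libraries were scaled by their size only. Per kilobase of exon the sum was 663 ± 13.2 in control and 625 ± 4.73 in knockdown, the opposite direction. The heavy chains SLC3A1 and SLC3A2 with the light chains of SLC7A made up 50.98% ± 0.679 of the per-kilobase sum in control and 25.1% ± 0.394 in knockdown (SD, n = 4), and SLC1A4 with SLC1A5 18.2% and 4.50%. Glutamate carriers went from 2.31% to 19.8%, system A from 13.0% to 26.5% and cationic carriers from 3.26% to 13.1%. The cationic group counts SLC7A4, whose transport role is unsettled, at 0.00142% in control and 3.44% in knockdown. The 6 members with fewest counts in control among those that rose over 8-fold (SLC38A4, SLC7A2, SLC7A4, SLC6A11, SLC6A12 and SLC6A16), grouped after their values were seen, went from 0.0133% to 19.6%.

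**Figure D4:**
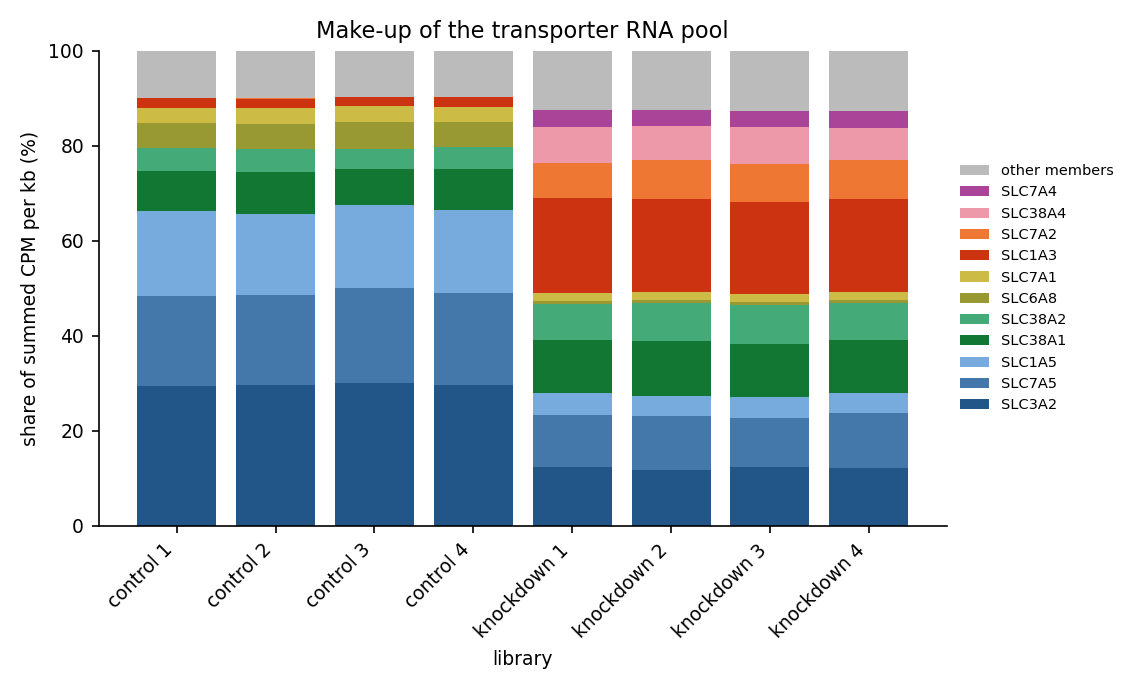
Share of the summed CPM per kb of all members (%) held by each of 11 named transporter genes and by the others, in each of the 8 libraries. SLC3A2 averages 29.7% in control and 12.2% in knockdown and SLC1A3 1.92% and 19.6%, and libraries of 1 group look alike.

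Other genes of amino acid handling were counted in lists chosen by function. Of all tested genes, 39.4% were called higher and 37.7% lower in knockdown, and no list was tested as a set. Cytosolic aminoacyl-tRNA synthetases, which load tRNAs with amino acids, rose in 15 of 20 tested genes and fell in 5, with a median log2 fold change of 0.21 against 0.02 for all tested genes. Their changes were small, from 0.80 for LARS1, the leucine enzyme, to -0.59 for GARS1, the glycine enzyme. Genes of arginine, ornithine and polyamine metabolism fell in 9 of 13 tested and rose in 4, median -0.47. In this list ODC1, which makes putrescine from ornithine, rose most at 1.07, and NOS3, which makes nitric oxide from arginine, had the largest fall at -3.72.

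Genes of cystine and glutathione metabolism fell in 9 of 13 tested and rose in 4, median -0.31. GGT6, of the gamma-glutamyltransferase family, had the largest fall at -5.89. The largest rise was that of CBS, which makes cystathionine from serine and homocysteine, but its reads are shared with a near-identical copy, CBSL: the controls had 2, 0, 4 and 27 counts for CBS and 23, 13, 17 and 0 for CBSL, so the fold of CBS alone is uncertain. In knockdown CBS had 606 to 766 counts and CBSL 435 to 645. Genes of branched-chain amino acid breakdown fell in 8 of 15 tested and rose in 4, median -0.10; HIBADH, of valine breakdown, fell most at -1.83. BCAT1, the cytosolic branched-chain transaminase, rose from 1, 0, 0 and 1 counts to 103, 118, 87 and 89.

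Genes of glutamine, glutamate and asparagine metabolism rose in 6 of 15 tested and fell in 5, median 0.04. PRODH, which oxidises proline, fell most at -3.65. The lysosomal amino acid sensing machinery rose in 16 of 36 tested and fell in 12, median 0.02. Its largest rise was SESN3, a leucine-sensor relative, at 6.81 (4, 10, 8 and 9 counts in control and 815 to 1012 in knockdown), in a locus that an antisense gene overlaps, and its largest fall MIOS at -0.98. Carriers of amino acids and peptides outside the 7 families fell in 8 of 14 tested and rose in 4, median -0.13. The proton-coupled peptide carriers moved apart, SLC15A2 rising by 4.03 and SLC15A1 falling by 4.24 on the log2 scale. Beside the 77.1% of all genes that were called, the shares called in these lists ran from 11 of 15 to 20 of 20.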

How the data were processed

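RNA of 8 SKBR3 libraries was sequenced as paired-end reads of 101 bp after an mRNA library protocol on an Illumina NextSeq, per the labels' protocols. The authors deposited unscaled counts per gene as whole numbers; the submitters' processing notes list FastQC, Salmon 1.9 (which gives estimated counts), DESeq2 3.16 and build hg38, without their roles. They were treated as estimated counts already rounded by the authors; the annotation release, the use of strand and filters are not given in the sources used here. Groups came from the sample titles, and columns were matched to samples by name.

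Differential expression used edgeR 4.0.16 in R 4.3.3: filterByExpr (minimum 10 counts, total 15), TMM factors of 0.965 to 1.04, robust glmQLFit and glmQLFTest, and Benjamini-Hochberg adjustment over all 16430 genes tested, threshold 0.05. CPM is a count per 1000000 of the TMM-scaled library total; per-kilobase values divide it by GENCODE 29 exon length, from which positions also come (29358 of 30434 rows, 96.5%, matched by Ensembl ID). Standard errors come from log2 CPM of replicates with 0.5 added to each count, and fitted folds use a prior count of 0.125. Where a group was at 0, the fold is a bound against 3 counts per library; where it held 1 to 3 counts in all, it is a ratio of pooled counts with an exact 95% interval. Bounds and intervals cover counting error only.

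Alternatives were DESeq2 1.42.0, limma 3.58.1 (voom), other scalings and filters, a test against a 2-fold change, leaving out each library, and a regional offset that subtracts the median change (log2) of the 50 nearest tested genes. The fit was tested on simulated data for this comparison with 16062 genes: 79 of 100 changes of 0.5 and 94 of 100 changes of 1 (log2) were recovered, and 13 of 186 calls (6.99%) were false. Only 200 genes were changed there, all with higher counts, whereas 77.1% of the real genes tested were called. These rates therefore need not hold for the real comparison, nor for members with few counts in a group. Library numbers did not pair the samples: correlations of same-numbered deviations were 0.020, 0.056, -0.031 and -0.00064. Transporter genes and gene lists were chosen with earlier results of these data known. Every tested member is named; the 10 called members at 4 CPM or more with the largest fitted change are given with all counts, and each list by its largest rise and fall, except for a few results not reported here. Figures were drawn with matplotlib 3.10.9.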

Additional observations from a re-analysis of the deposited data

Results flagged for a closer look

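Among 74 groups of 4 values looked at (transporter quantities in control or in knockdown), 6 held a library whose gap to the nearest other, divided by the range of the group, exceeded Dixon's 95% critical value, beside 3.7 that chance gives at 1 in 20. In the controls these were SLC7A11 (gap over range 0.917), where replicate 3 had 5.31 CPM and the others 7.59 to 7.80, SLC1A4 (0.840), where replicate 4 had 19.6 CPM and the others 20.03 to 20.11, and SLC6A16 (1), where replicate 2 had 2 counts and the others 0. In knockdown they were SLC43A2 (0.942), where replicate 4 had 37.9 CPM and the others 33.1 to 33.3, SLC1A5 (0.909), where replicate 1 had 95.2 CPM and the others 87.7 to 88.4, and SLC38A3 (0.834), where replicate 1 had 0.594 CPM and the others 0.777 to 0.814. No library was picked out in more than 2 of the 6.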

How the results depend on the processing

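Against a 2-fold change, edgeR called 9 members higher and 7 lower, and 3863 of all genes, fewer because the test asks for more. The other alternatives kept the counts of members and of all genes within 1.5 times: 14 to 20 higher, 12 to 17 lower and 10279 to 15028 of all genes. Without each library in turn, 17 members were higher, 13 to 15 lower and 12498 to 12865 of all genes called. The replicate block gave 17, 14 and 12453. Replicate numbers showed no pairing in these data, and 1 of 4 control libraries correlated best with its own number; under the block, the log2 difference in the ratio of SLC7A5 to SLC3A2 was 0.49 and did not pass a sign-flip test, which 4 pairs are too few to pass. That difference ran from 0.469 to 0.521 without each library. The rise in summed CPM was 449.4 under upper quartile scaling and 503.5 under library size only, and 302.0 to 338.9 without each library. These scalings moved the median of all genes by 0.059 and 0.084 on the log2 scale.

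Of 657 values of single members under an alternative, 623 kept direction and side of the threshold. A further 23 lost the call, most of them under the test against a 2-fold change, which asks for more. Only 2 gained it (SLC6A4 at 0.43 with the regional offset, SLC6A20 at -0.64 without knockdown replicate 3) and 9 changed sign. The 9 belong to members that did not pass in the first place. SLC1A6 was at -0.11 with the regional offset and between -0.12 and -0.057 without control replicate 2 or 4 or knockdown replicate 1 or 3 (-0.118, -0.057, -0.094 and -0.085); its highest value was 0.24, without knockdown replicate 2. SLC38A6 was at 0.014 under upper quartile scaling, 0.038 under library size only, 0.0019 without control replicate 2 and 0.014 without knockdown replicate 2. The cause was not tested. Depth limits the 16 untested members, with 0 to 13 counts per library.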
